A study of Mus musculus with 4 samples.

Results

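The Hox genes encode homeodomain transcription factors that lie side by side in 4 clusters, and their order along a cluster mirrors the order in which they are expressed from the head end of the embryo to the tail end. Genes at the same place in different clusters share a paralogue number from 1 to 13 and overlapping roles, the low numbers being anterior and the numbers from 9 upward posterior. In the mouse the paralogues of group 11 act in the metanephric mesenchyme, where they work with Eya1 and Pax2 to switch on Six2 and Gdnf, and Hoxb7 is known for its expression in the ureteric bud. Adult cells often keep the Hox code of the region they came from. All probes for transcripts whose gene name was Hox, a cluster letter and a number were taken, which gave 45 probes for 39 genes of the 29875 named genes on the array. Of these 39, 32 passed the filter on dim probes and were among the 18392 genes tested.

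The cells were primary tubular cells cultured in Promocell medium from kidneys of male B6.J mice aged 8 weeks, 2 samples from wild type and 2 from SerpinB2-/- animals, and the series title asks about plasminogen activator inhibitor-2, which Serpinb2 encodes, in kidney injury and renal ageing. PMA, a phorbol ester and activator of protein kinase C, had been given at 100 ng/ml to every culture, the controls included, and the series held no untreated cells. The labels leave unsaid whether the 2 samples of a genotype were separate cultures, separate animals or pools, so p-values measure only the spread between these samples. Wild type held the first positions of the shared slide and SerpinB2-/- the last, so position and genotype cannot be told apart.

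On each array the 75th percentile of signal was between 1902 and 2143 units, which was 313 to 385 times the negative controls' median, and 23409 to 24476 probes per array were well above background. Values below are scaled signal units, after each array's 75th percentile was set to a common 2003 units. The targeted gene, Serpinb2, gave 3207 and 3276 units on the wild type arrays against 5.47 and 7.39 on the SerpinB2-/- arrays, both of which missed the mark of well above background. It was thus at least 140-fold lower (adjusted p = 0.000689, limma). Whether its probe lies in the deleted part is not given in the labels. All 10 markers of tubular epithelium, among them Pax2 and Pax8, were detected on every array. Of 10 proximal tubule markers 8 were tested, while the transporter Slc5a2 was detected on 1 array and Slc22a8 on none. Markers of fibroblasts and pericytes (10 of 12 tested), endothelium (6 of 7) and leukocytes (8 of 8) were also detected, so a Hox transcript in these cultures cannot be assigned to tubular cells.

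The cultures held transcripts of all 4 clusters, and every central paralogue group and the posterior groups from 9 to 11 were represented. Detection was complete across the 4 arrays for 10 of 11 Hoxa genes on chromosome 6, 9 of 10 Hoxb genes on chromosome 11, 7 of 9 Hoxc genes on chromosome 15 and 6 of 9 Hoxd genes on chromosome 2. The 6 genes not well above background on any array lay at the ends of the clusters: Hoxb1 and Hoxd1, which act in the early hindbrain and trunk, and Hoxc12, Hoxd12, Hoxa13 and Hoxd13 of the posterior end. Hoxa13 and Hoxd13 are known for digits and the urogenital outlet. The scaled signals of the 6 undetected genes, by the brightest probe, ran from 5.37 to 28.5 units, with Hoxa13 at the upper end. A second Hoxa13 probe gave 5.70 and 5.54 units in wild type against 5.38 and 7.33 in SerpinB2-/- cells. On every array 0% of that probe's spots were well above background. Neither gene of paralogue group 12 was detected, and of the 4 genes of group 13 only Hoxb13 and Hoxc13 were. In groups 9, 10 and 11 all of the 4, 3 and 3 genes were.

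**Figure D1:**
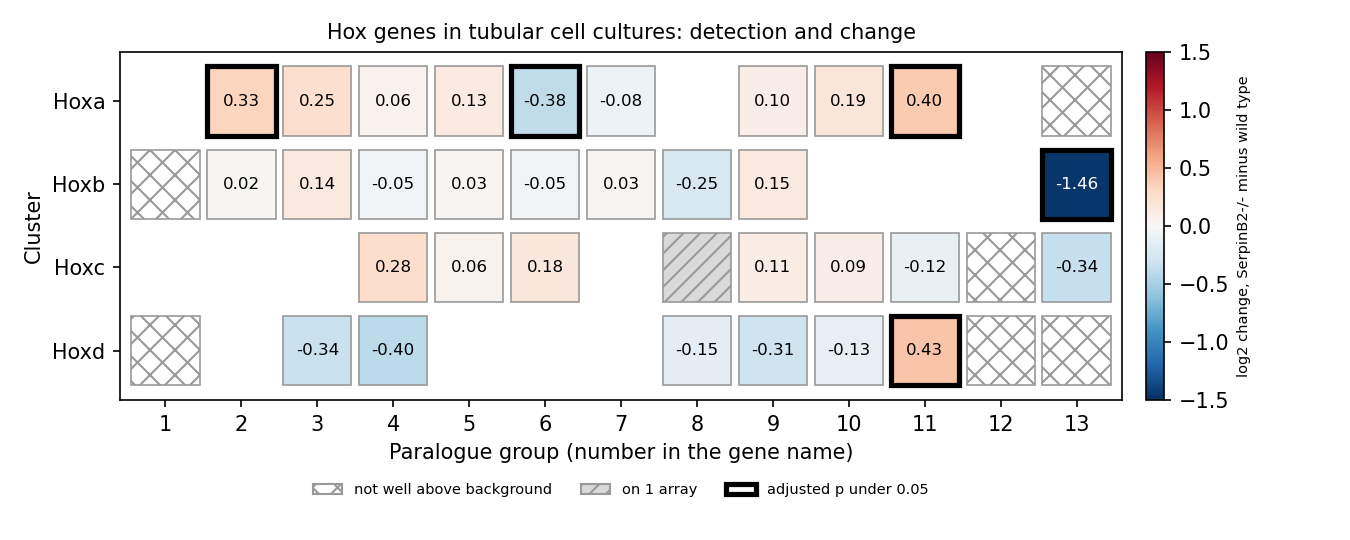
Each of the 38 squares is a Hox gene on the array, placed by cluster and paralogue group, with its log2 change (SerpinB2-/- minus wild type) as colour and number. Crossed squares mark the 6 genes not well above background, the striped square Hoxc8, and heavy frames the 5 genes past the threshold.

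Hoxc8, a gene of the thoracic region, was the member just outside the filter, which asked that over 50% of a probe's spots be well above background on both arrays of a genotype. Its shares of such spots were 50% and 33.3% in wild type against 75% and 50% in SerpinB2-/- cells. The signals were 26.7, 28.4, 32.7 and 36.7 units in the same order, and it was not tested. Hoxd3, the dimmest member that passed, had 100% of its spots well above background on every array. It gave 56.8 and 68.7 units in wild type against 50.6 and 48.1 in SerpinB2-/- cells. Detection is a property of the probe as well as of the RNA. Hoxa3 had a second probe, matched to another transcript at chr6:52149150-52149208 (mm9, minus strand), that was not well above background on any array. Whether the probe or an absent transcript accounts for that was not tested.

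Between the genotypes the Hox genes as a group stayed close to the level of change seen across the array. Of the 32 tested genes 5 passed the threshold of an adjusted p of 0.05, or 15.6%, against 15.7% of all genes tested. At an unadjusted p under 0.05 (limma) 6 Hox genes lay above 0 and 6 below, and 6289 of all 18392 genes tested reached that mark. Hoxa2, Hoxa11 and Hoxd11 were higher in SerpinB2-/- cells (6.01% of all genes were called higher), and Hoxa6 and Hoxb13 were lower (9.67%). The median log2 change (SerpinB2-/- minus wild type) was 0.03 for the Hox genes and 0.01 for all genes, and the median size of the change regardless of sign was 0.14 and 0.13. A change smaller than 0.2 was found for 20 of 32 Hox genes (62.5%) and for 66.5% of all genes. The arrays of the genotypes did not overlap for 19 Hox genes, with SerpinB2-/- above for 11 and wild type above for 8, against 64.3% of all genes (32.5% and 31.9%). The 5 calls became 2 with normexp background correction and 0 with no filter on dim probes or without wild type replicate 1 or 2 (by limma, with 11, 9 and 8 Hox genes at an unadjusted p under 0.05). They became 1 and 2 without SerpinB2-/- replicate 1 and 2. In whole cultures fewer cells of a type and less RNA per cell cannot be told apart.

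Hoxb13, a posterior gene known in the mouse for the prostate, hindgut and tail, showed the largest change among the tested Hox genes. It gave 365 and 291 units in wild type against 97.8 and 144 in SerpinB2-/- cells, so the lower wild type array was still above the higher SerpinB2-/- array. The means were 328 ± 52.5 and 121 ± 32.4 (SD, n = 2 each), a change of -1.46 ± 0.21 (log2, SE) or 2.75-fold lower (adjusted p = 0.0191, limma). Among all genes 1.22% were called lower by at least 2-fold. Its call was lost without wild type replicate 1 (adjusted p = 0.0828) or replicate 2 (0.0548), while the log2 change stayed between -1.73 and -1.09 in 19 alternative settings. Hoxb13 also stands apart on the chromosome: its probe lies 79.8 kb from that of Hoxb9, against 26.1 kb for the next widest gap in the cluster. The probe's first 30 bases, shown because the only change of more than 2-fold in the family rests on this single probe, are at chr11:96057854-96057883 (mm9, plus strand), 5′ to 3′.
Hoxb13 probe: aaatcgctttcatgagttgagctgattgtg

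The other 13th paralogue detected, Hoxc13, which acts in hair and nails, gave 86.8 and 86.1 units in wild type against 61.3 and 76.0 in SerpinB2-/- cells. Wild type was above on both arrays, but the change of -0.34 ± 0.11 did not pass (adjusted p = 0.110). Without SerpinB2-/- replicate 2 it did (-0.50, adjusted p = 0.0408).

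In paralogue group 11, whose genes act together in the developing kidney, 2 of 3 members were called higher in SerpinB2-/- cells, against 6.01% of all genes tested. Whether the group changed as a whole was not tested. Hoxa11 gave 1402 and 1343 units in wild type against 1742 and 1875 in SerpinB2-/- cells, with no overlap. The change was 0.40 ± 0.07 (1.32-fold, adjusted p = 0.0261), at a probe on chr6:52192107-52192166 (mm9, minus strand). Hoxd11 gave 83.2 and 89.6 units in wild type against 113 and 120 in SerpinB2-/- cells, again without overlap. Its change was 0.43 ± 0.07 (1.35-fold, adjusted p = 0.0249), at a probe on chr2:74525014-74525073 (mm9, plus strand). A second Hoxd11 probe gave 77.5 and 85.5 units against 103 and 116, and a change of 0.43 ± 0.09 in a fit of every probe by itself. The third member, Hoxc11, gave 486 and 495 units in wild type against 422 and 485 in SerpinB2-/- cells. Its change of -0.12 ± 0.08 (adjusted p = 0.384) did not pass, and it turned to 0.02 with scaling by the median. Whether Hoxc11 differed from the other members was not tested. Both calls ended when any 1 of the 4 arrays was left out (adjusted p = 0.0541 to 0.113 for Hoxa11 and 0.0560 to 0.111 for Hoxd11). With normexp background correction Hoxd11 was at 0.26 (adjusted p = 0.0770).

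**Figure D2:**
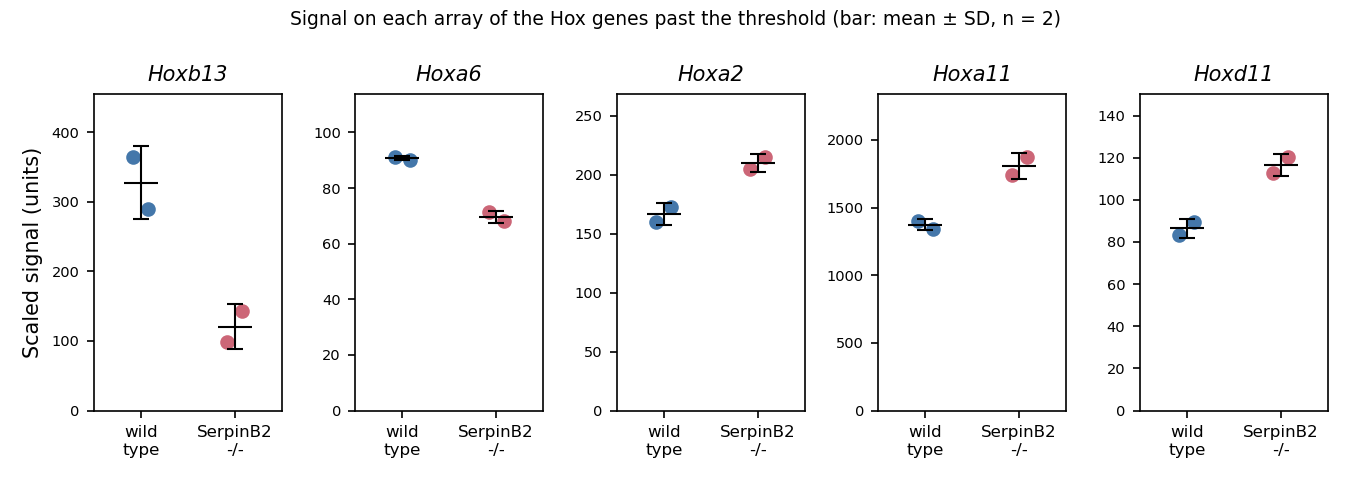
Points give the scaled signal, in units on a linear axis from 0, on each of the 2 wild type and 2 SerpinB2-/- arrays for the 5 Hox genes past the threshold. Bars are the mean ± SD, and in each panel the genotypes do not overlap.

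The RefSeq promoter windows of Hoxa11 and Hoxd11, 250 bases before to 50 after each annotated start in GRCm38.p6, are shown because both genes were higher. Hoxd11 has 2 such starts. Capitals mark TAAT, the core bound by many homeodomains, and TGANTCA, each searched on both strands. With N as any base, TGANTCA is a loose form of the site of AP-1, a factor activated by phorbol esters. TAATTA holds the core on both strands, as overlapping matches.
Hoxa11, chr6:52245761-52246060, minus strand: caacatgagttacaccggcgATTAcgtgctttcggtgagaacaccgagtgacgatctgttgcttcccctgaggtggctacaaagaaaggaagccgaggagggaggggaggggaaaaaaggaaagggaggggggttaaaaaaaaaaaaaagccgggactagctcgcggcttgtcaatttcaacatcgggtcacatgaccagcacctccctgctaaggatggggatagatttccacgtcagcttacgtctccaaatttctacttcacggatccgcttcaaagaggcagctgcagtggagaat
Hoxd11, chr2:74679308-74679607, plus strand: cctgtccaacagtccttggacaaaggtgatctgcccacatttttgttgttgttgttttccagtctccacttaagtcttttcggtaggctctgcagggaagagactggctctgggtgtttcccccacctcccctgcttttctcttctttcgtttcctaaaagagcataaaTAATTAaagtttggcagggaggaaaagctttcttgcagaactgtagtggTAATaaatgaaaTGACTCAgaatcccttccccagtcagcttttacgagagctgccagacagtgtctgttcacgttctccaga
Hoxd11, chr2:74682073-74682372, plus strand: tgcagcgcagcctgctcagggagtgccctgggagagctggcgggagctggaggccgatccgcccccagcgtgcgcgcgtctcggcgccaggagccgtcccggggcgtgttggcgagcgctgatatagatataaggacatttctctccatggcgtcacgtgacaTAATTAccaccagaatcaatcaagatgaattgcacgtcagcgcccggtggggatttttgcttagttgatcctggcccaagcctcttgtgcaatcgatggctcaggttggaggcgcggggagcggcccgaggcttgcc

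The Hoxa11 window held 1 TAAT core, and the windows of Hoxd11 held 3 and 2. TAAT occurred in 19 of 24 windows of the 22 Hox genes with a window (79.2%), against 58.0% of 32851 windows in the genome. The first Hoxd11 window held TGACTCA, 20 bases before its start, and was the only Hox window with a TGANTCA match (1 of 24, or 4.2%, against 7.8% of all windows). Of the Hox windows 15 held CCAAT (62.5% against 37.4%) and 4 held TATAAA (16.7% against 13.6%), and 2 each held TGACAG, the core of Meis and Pknox proteins (8.3% against 19.2%), and TTTATNG, the core of posterior Hox and Cdx proteins (8.3% against 10.9%). AGGTCA, the half-site of nuclear receptors, was in 7 (29.2% against 16.3%), and GGGCGG, the GC box, in 10 (41.7% against 35.7%). All were searched on both strands, and a match is a description of letters. The Hox windows had a median GC content of 57.6% and 14.5 CpG, against 52.7% and 7 over all windows.

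Of the other called genes, Hoxa6, a central gene of the trunk, was lower. It gave 91.2 and 90.3 units in wild type against 71.2 and 68.1 in SerpinB2-/- cells, so the replicates of each genotype lay close together and apart from the other genotype. The change was -0.38 ± 0.06 (1.30-fold lower, adjusted p = 0.0210), at a probe on chr6:52158194-52158253 (mm9, minus strand). Hoxa2, which patterns the hindbrain and the second pharyngeal arch, gave 160 and 173 units in wild type against 205 and 215 in SerpinB2-/- cells, without overlap. That was a change of 0.33 ± 0.07 (1.26-fold, adjusted p = 0.0405), at a probe on chr6:52112595-52112654 (mm9, minus strand). Both calls ended with any 1 array left out (adjusted p = 0.0592 to 0.103 for Hoxa6 and 0.0918 to 0.159 for Hoxa2). With normexp correction the changes were -0.20 for Hoxa6 and 0.19 for Hoxa2, and neither passed (adjusted p = 0.113 and 0.131). Hoxa6 also missed the threshold with quantile normalization (0.0699) and median scaling (0.0505), and Hoxa2 with the authors' deposited table of values (0.0679). Each of the 5 called genes kept its sign in all 19 alternatives.

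The remaining posterior genes, of paralogue groups 9 and 10, did not pass. Hoxa9, a gene of blood and limb, gave 277 and 261 units in wild type against 272 and 304 in SerpinB2-/- cells (0.10 ± 0.08, adjusted p = 0.425). Its genotypes overlapped, and a second probe gave -0.16 ± 0.12. Hoxb9 was at 9711 and 6683 units in wild type against 8457 and 9398 in SerpinB2-/- cells (0.15 ± 0.19, adjusted p = 0.622). The wild type arrays enclosed the SerpinB2-/- arrays. Hoxc9, which sets thoracic motor neuron identity, had 7181 and 7027 units in wild type against 7404 and 7929 in SerpinB2-/- cells (0.11 ± 0.06, adjusted p = 0.292). Hoxd9 had 531 and 501 units in wild type against 388 and 448 (-0.31 ± 0.09, adjusted p = 0.0867). Neither Hoxc9 nor Hoxd9 overlapped between the genotypes, SerpinB2-/- being above for Hoxc9 and below for Hoxd9. Hoxa10, known for the uterus and lumbar vertebrae, had 1452 and 1423 units in wild type against 1503 and 1799 in SerpinB2-/- cells (0.19 ± 0.10, adjusted p = 0.242). Hoxc10, of the lumbar spinal cord, had 848 and 827 units in wild type against 882 and 905 in SerpinB2-/- cells (0.09 ± 0.06, adjusted p = 0.307). For both, SerpinB2-/- was above on each array, but the change did not pass the threshold. Hoxd10 had 566 and 629 units in wild type against 513 and 578 in SerpinB2-/- cells, which overlapped (-0.13 ± 0.09, adjusted p = 0.361).

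By position along the clusters, 1 of 6 anterior genes (groups 1 to 3), 1 of 14 central genes (groups 4 to 8) and 3 of 12 posterior genes (groups 9 to 13) were called. By cluster, the numbers called were 3 of 10 Hoxa, 1 of 9 Hoxb, 0 of 7 Hoxc and 1 of 6 Hoxd genes by limma. Over all genes tested 15.7% were called, and with so few members a count by position or cluster shows no pattern by itself. In the Hoxc cluster 3 of 7 genes had an unadjusted p under 0.05 (limma), against 6289 of all 18392 genes tested. Hoxc4 and Hoxc6 lay above 0 and Hoxc13 below. The cluster medians were 0.12, 0.02, 0.09 and -0.23. Differences between clusters were not tested. In the Hoxd cluster 5 of 6 genes lay below 0, from -0.13 to -0.40, with Hoxd11 at 0.43, and with scaling by the median 4 of 6 did, since Hoxd10 turned to 0.0024. Hoxd4, a hindbrain gene, had 575 and 477 units in wild type against 374 and 422 in SerpinB2-/- cells (-0.40 ± 0.12, adjusted p = 0.0856), without overlap. Hoxd3, of the neck vertebrae, stood at -0.34 ± 0.11 (adjusted p = 0.0975) and Hoxd8 at -0.15 ± 0.06 (0.182).

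**Figure D3:**
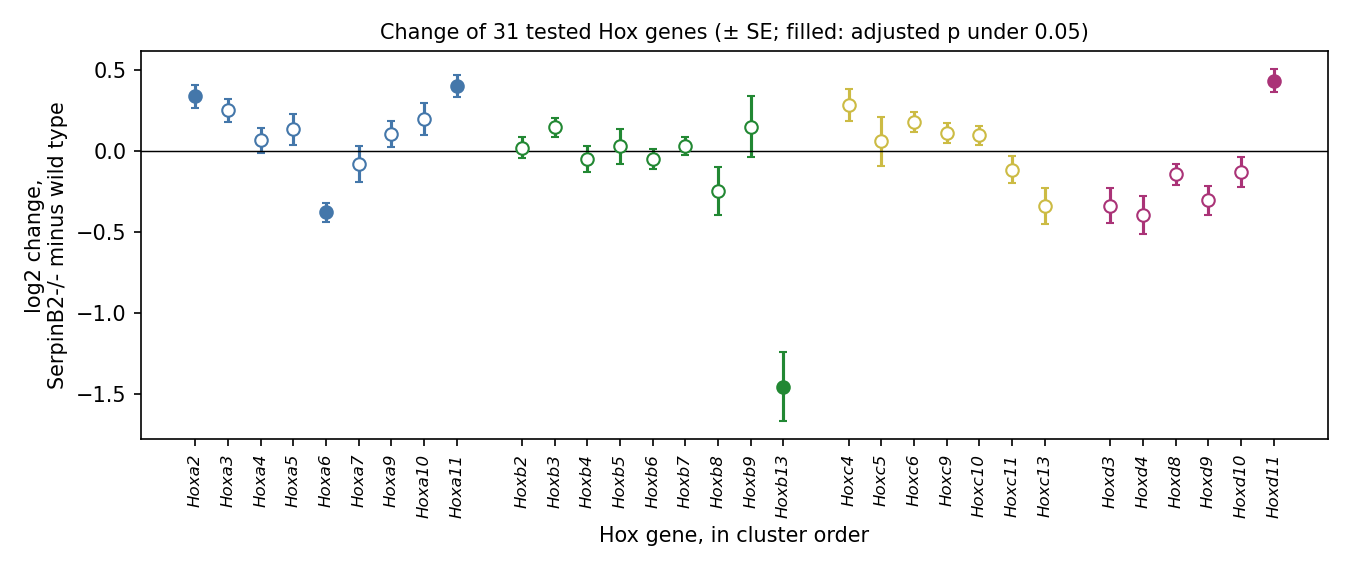
The log2 change (SerpinB2-/- minus wild type) of 31 tested Hox genes is drawn in cluster order with its SE, filled where the adjusted p was under 0.05. Hoxb13 at -1.46 lies apart from the other 30, which span -0.40 to 0.43.

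Hoxb7, the gene of the ureteric bud, lay close to 0. It gave 13724 and 13874 units in wild type against 14232 and 13969 in SerpinB2-/- cells, a change of 0.03 ± 0.06 (adjusted p = 0.724). The other Hoxb genes from 2 to 6 lay between -0.05 (Hoxb4 and Hoxb6) and 0.14 (Hoxb3), and Hoxb8 was at -0.25 ± 0.15 (adjusted p = 0.302). The second probe of Hoxb3 gave -0.08 ± 0.08. In the Hoxa cluster, Hoxa3, a gene of the thymus and throat, was at 0.25 ± 0.07 (adjusted p = 0.0783). Hoxa4 was at 0.06, Hoxa5 at 0.13 and Hoxa7 at -0.08. Hoxc4, Hoxc5 and Hoxc6 were at 0.28, 0.06 and 0.18. None of these passed. The replicates differed for the Hox genes by a median of 0.08 between the wild type arrays and 0.12 between the SerpinB2-/- arrays. The scaling mattered for such small values: the median of all genes lay at 0.14 with median scaling, where 10 Hox genes were called higher and 1 lower. The median over the Hox genes was then 0.16, or close to that of all genes, and 24 of 32 lay above 0 in place of 18.

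Non-coding genes inside the clusters were set apart from the coding members, and 4 of a chosen list of 10 were tested. Outside that list, Hoxaas3 was read by a probe on the minus strand, the strand of the Hoxa probes. It had 238 and 272 units in wild type against 208 and 241 in SerpinB2-/- cells, which overlapped. Its change was -0.18 ± 0.11 in a limma fit of every probe by itself (adjusted p = 0.287). Hoxd3os1, transcribed opposite Hoxd3, gave 181 and 195 units in wild type against 143 and 125 in SerpinB2-/- cells. It was lower, with no overlap and a log2 change of -0.49 ± 0.09 (adjusted p = 0.0304). A second Hoxd3os1 probe gave 23.6 and 23.4 units in wild type against 21.1 and 22.8, and was not well above background on any array. Hoxa11os, the opposite strand of Hoxa11, had 1260 and 1287 units in wild type against 1336 and 1685 in SerpinB2-/- cells (0.24 ± 0.12, adjusted p = 0.240). Its annotated start lies 567 bases from that of Hoxa11. Hoxb5os was at 0.39 ± 0.17 and Hoxaas2 at -0.27 ± 0.11, neither past the threshold. The probes of Hoxa3 and Hoxaas2 cover the same 40 bases from opposite strands, so each reads 1 strand of that stretch. They are shown for 30 of those bases, chr6:52119112-52119141 (mm9), the first on the minus and the second on the plus strand.
Hoxa3 probe: atttgttttgagagttttacattccttgct
Hoxaas2 probe: agcaaggaatgtaaaactctcaaaacaaat

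Among the cofactors of Hox proteins and the chromatin factors of the clusters, 2 of 39 tested genes were called, against 15.7% of all genes tested. None of the 9 tested TALE cofactors, the Pbx, Meis and Pknox homeodomain proteins that bind DNA beside Hox proteins, passed by limma. At an unadjusted p under 0.05 there were 3, all above 0, against 6289 of all 18392 genes tested. By the same mark 6 Polycomb genes lay above 0 and 1 below. Of 19 Polycomb genes, which keep Hox clusters silent, Suz12 was higher (0.30 ± 0.06, adjusted p = 0.0334), from 4125 and 4176 units to 5196 and 5021. Of 11 Trithorax and histone demethylase genes, which oppose Polycomb, the chromatin reader Psip1 was higher (0.55 ± 0.06, adjusted p = 0.00970), from 2129 and 2093 units to 3114 and 3065.

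Retinoic acid activates anterior Hox genes, and 14 of 19 genes of its pathway and of other upstream regulators were tested. The synthesising enzyme Aldh1a1 was lower (-1.73 ± 0.14 on the log2 scale, adjusted p = 0.00740) and its relative Aldh1a3 higher (0.63 ± 0.12, 0.0347). The receptors Rarg (-0.45 ± 0.06) and Rxra (-0.29 ± 0.06) were lower. The regulators Cdx1, Cdx2 and Cdx4, the binding protein Crabp1 and the degrading enzyme Cyp26a1 were not well above background. The related degrading enzyme Cyp26b1 had 2033 and 1580 units in wild type against 232 and 705 in SerpinB2-/- cells. These did not overlap, but the change of -2.15 ± 0.53 did not pass (adjusted p = 0.0592). The binding protein Crabp2 was detected on all 4 arrays, at -0.12 ± 0.14 (adjusted p = 0.609). Of 10 tested partners and targets of Hox genes in the metanephros, Wt1 (0.80 ± 0.14) and Osr1 (0.30 ± 0.06) were higher. Six2, a marker of nephron progenitors, was lower (-0.41 ± 0.09, adjusted p = 0.0461, limma). It was dim, at 53.6 and 62.3 units in wild type against 44.5 and 42.4 in SerpinB2-/- cells. The brighter Gdnf (-0.08 ± 0.06) and Eya1 (0.05 ± 0.06) did not pass (adjusted p = 0.377 and 0.578, limma). The median over the 10 tested partners and targets was 0.01. Among 19 tested genes beside the clusters, Calcoco1 near Hoxc was lower (-0.58 ± 0.08), and Hnrnpa1, also near Hoxc (0.31 ± 0.06), and Lnpk near Hoxd (0.27 ± 0.06, adjusted p = 0.04996) were higher.

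Markers of several cell types moved in the same comparison, and their part in the Hox changes was not tested. Of 10 markers of tubular epithelium 5 were lower and 0 higher (1 above 0 at an unadjusted p under 0.05, limma), led by Cdh1 (-0.79), Epcam (-0.58) and Cdh16 (-0.51). Their summed signal ran from 566145 to 566615 units in wild type and from 448337 to 471164 in SerpinB2-/- cells. Most of it came from Krt8, which was lower (-0.29), and Krt18, which did not pass (-0.23, adjusted p = 0.0980, limma). Of 5 tested distal nephron and collecting duct markers 4 were lower, with log2 changes of -1.24 for Tfap2b, -1.22 for Scnn1a, -1.10 for Hsd11b2 and -0.78 for Gata3. Their sum was 2152 to 2265 against 1120 to 1200 units. The transporters Slc12a1 and Slc12a3 that define the loop of Henle and distal tubule, with Calb1 and Atp6v1b1, were not well above background, and Umod was detected on 1 array.

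Of 6 tested endothelial markers 5 were lower, among them Plvap at -1.78, Tie1 at -1.70 (below the mark of well above background on 1 array), Cdh5 at -1.37 and Emcn at -1.08, and Tek was not well above background. The sum was 8073 to 8315 against 5532 to 6673 units, or 3337 to 3836 against 1091 to 1611 without Kdr, which was at 0.05 (adjusted p = 0.800). Of 8 leukocyte markers 3 were lower, Adgre1, Csf1r and Ptprc (sum 19570 to 21584 against 17591 to 17897 units). Most of that sum came from Itgam, which did not pass (-0.09, adjusted p = 0.440, limma). Of 10 tested fibroblast and pericyte markers 3 were higher, Postn (1.09), Col3a1 (0.81) and Foxd1 (0.78), and 0 lower (1, Dcn at -0.33, at an unadjusted p under 0.05, limma). Thy1 (-0.64) and Tbx18 (-0.18) also lay below 0 without passing, and Pdgfra was at 0.06. The sum was 134621 to 157440 against 176263 to 195195 units, most of it from Col1a1 and Col1a2, which did not pass (adjusted p = 0.101 and 0.117). Without both it was 9623 to 11015 against 14972 to 20778 units. Lum and Tcf21 were not well above background. The proximal tubule sum was 6369 to 6712 against 6405 to 6735 units, most of it from Lrp2 at 0.01 (adjusted p = 0.924, limma). In that list Hnf4a was higher (0.57) and Anpep lower (-0.60). No marker of 5 tested of urothelium and squamous epithelium passed by limma, 2 having an unadjusted p under 0.05 below 0, and Upk1b, Upk2 and Upk3a were not well above background.

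**Figure D4:**
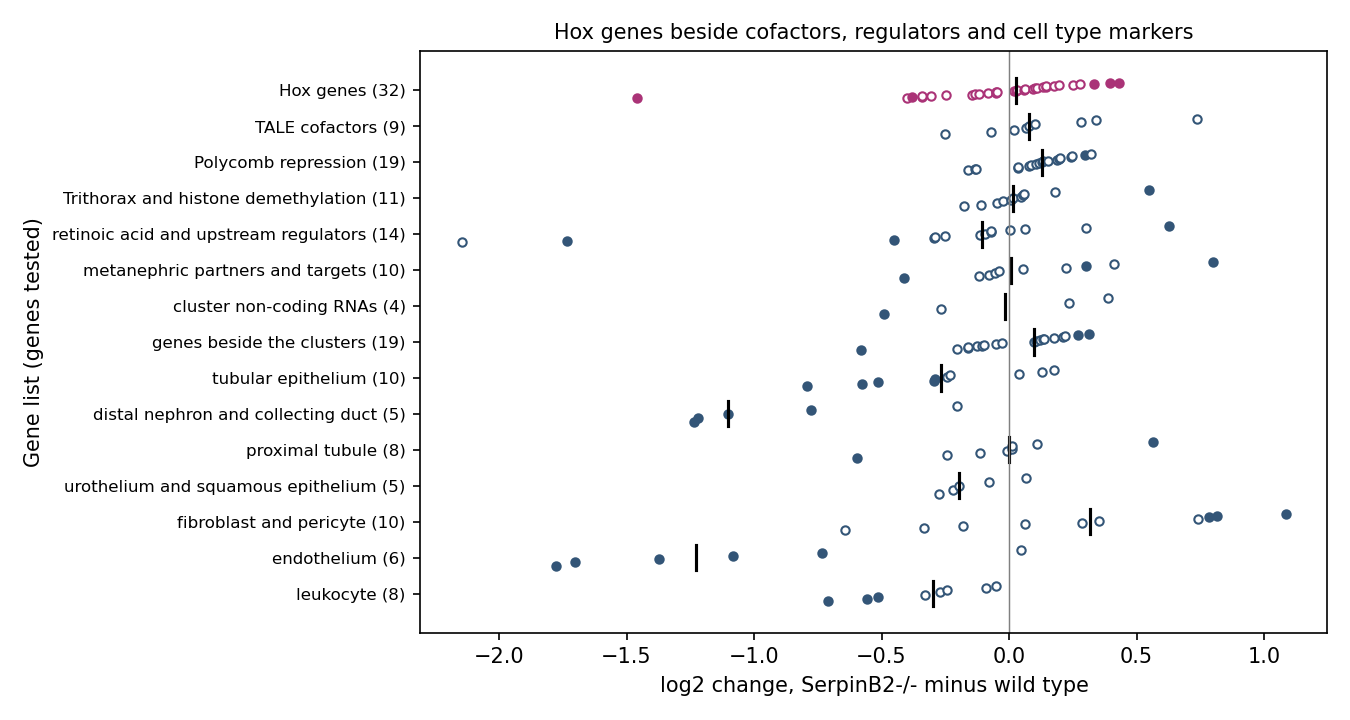
Each point is the log2 change (SerpinB2-/- minus wild type) of a tested gene, filled where the adjusted p was under 0.05, and each bar is the median of its list. The 32 Hox genes lie around 0 with Hoxb13 at -1.46, while 5 of 6 endothelial markers lie at or below the -0.74 of Pecam1.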

How the data were processed

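Samples were grouped by the genotype label, and replicate numbers came from the titles. Per the file headers, the deposited intensity of each spot had been made by Agilent Feature Extraction 10.7.3.1, a version also given in the submitters' processing notes, with background subtraction and surrogates for dim spots, on 1-colour arrays with 4 spots per probe and probe positions on mm9 (NCBI37). All 4 arrays lay on 1 slide. A deposited table of the authors' intensity values, used as an alternative, has its 75th percentile at 1500 on each array, a floor at 4, and medians of 76 and 77 (wild type) and 68 and 71 (SerpinB2-/-). It follows the scanner values by factors of 0.698 to 0.787, and its scaling is not given in the sources used here.

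Control and outlier spots were left out, the deposited intensity was put on the log2 scale, spots of a probe were averaged, and each array's 75th percentile was subtracted. Probes with over 50% of spots well above background on both arrays of a genotype were kept, and the brightest such probe stood for a gene. No spot was saturated. "At least N-fold" sets the bright group's mean against the lowest signal well above background on each dim array. Gene symbols were updated through a reference table of GRCm38.p6 (28328 probes by accession and 243 by synonym). Of 45 Hox probes 44 matched by accession and 0 were renamed.

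The 18392 genes were compared with limma 3.58.1 (lmFit, eBayes) in R 4.3.3, coded as SerpinB2-/- minus wild type. Adjustment followed Benjamini and Hochberg over all of them, with a threshold of 0.05. The procedure was tested on simulated data. The number of arrays limits the precision: an exact two-sided test of 2 against 2 cannot go below 0.333. Promoter windows are from RefSeq. Members are named except 1, which enters the counts and is not reported here. Values on each array are given for called members and for the posterior groups. Up to 4 called genes of each other list, those with the largest change, are named. Hoxc8, Hoxd3, Hoxd4, Hoxb7, the non-coding genes, Cyp26b1, Crabp2, Aldh1a2, Gdnf, Eya1, Kdr and the fibroblast markers not called were added with their values known. Members and lists were chosen with earlier results of these data known.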

Additional observations from a re-analysis of the deposited data

How the results depend on the processing

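The 5 called Hox genes kept their direction under all alternatives. The 3 higher and 2 lower Hox calls became 1 and 1 with normexp correction and 3 and 1 with quantile normalization. With median scaling they became 10 and 1, and all calls rose from 2884 (1105 higher, 1779 lower) to 5583 (4338 higher, 1245 lower). With no filter on dim probes there were 0 and 0 Hox calls by limma and 3 calls in all (6 Hox genes higher and 5 lower at an unadjusted p under 0.05). The threshold of 0.01 left 0 and 0 and 440 in all (6 and 6 unadjusted), and that of 0.1 gave 4 and 5 and 4840. Leaving out 1 array gave 0 higher and 0 to 2 lower Hox calls (3 to 8 and 3 to 5 unadjusted) and 463 to 1424 calls in all: 463 and 650 without wild type replicate 1 and 2, and 1424 and 1329 without SerpinB2-/- replicate 1 and 2. Between 32 and 33 Hox genes passed the filter in these. With the replicate number as a block 2 Hox genes were called higher and 2 lower, of 2143 calls, and Hoxa2 no longer passed (adjusted p = 0.0625). Same-numbered samples share only a number (correlation of deviations over genes 0.26). Of 589 values of single genes 21 changed sign, all of genes not called in either setting. These were Hoxb7 (-0.0067) and Hoxb2 (-0.024) with quantile normalization. With median scaling they were Hoxa7 (0.052), Hoxb6 (0.083), Hoxb4 (0.083), Hoxd10 (0.0024) and Hoxc11 (0.018), and with the percentile of detected probes Hoxb7 (-0.0074), Hoxb2 (-0.019) and Hoxb5 (-0.012). Hoxa9 was at -0.031 as the mean of its probes. With 1 array left out the ranges were -0.20 to 0.030 for Hoxa7, -0.12 to 0.17 for Hoxb5, -0.12 to 0.42 for Hoxb9, -0.13 to 0.24 for Hoxc5, -0.018 to 0.14 for Hoxa4, -0.14 to 0.032 for Hoxb4 and -0.032 to 0.070 for Hoxb2. Fewer samples or more genes tested are part of those settings, and for the others the cause was not tested. A lone sample was assumed to vary like the other group. Signal over background limits Hoxc8 and Hoxa13.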
